A study of Mus musculus with 6 samples.

Results

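The core of B-cell receptor signaling was followed here through 9 genes chosen by name: Cd79a, Cd79b, Cd81, Lyn, Syk, Btk, Blnk, Plcg2 and Ms4a1. They are 9 of the 46963 gene names that received a count per library, and all 9 were among the 14600 genes that reached 10 counts in at least 2 libraries and were tested. The rule is this list of names, with no threshold on a measured value.

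A B-cell binds antigen with a membrane immunoglobulin, which has almost no cytoplasmic part of its own and signals through the attached chains CD79A and CD79B. Src family kinases, mainly LYN, phosphorylate tyrosines in these chains, SYK docks on them, and the adaptor BLNK then brings BTK to phospholipase C-gamma-2 (PLCG2), whose products open the calcium and protein kinase C branches. CD81 is a tetraspanin of the co-receptor complex, and Ms4a1 encodes CD20, a surface protein of mature B-cells that takes part in calcium entry. LPS, a glycolipid of the outer membrane of gram-negative bacteria, stimulates B-cells through Toll-like receptor 4 and not through the antigen receptor.

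RNA was sequenced from CD43-depleted splenic B-cells of wt mice, of Eμ-deficient mice, which lack the intronic IgH enhancer Eμ with its flanking matrix attachment regions, and of 3′RR-deficient mice, which lack the enhancer cluster at the 3′ end of the IgH locus. The mice were of the 129 strain, of both sexes, and 8 to 12 weeks old according to the methods of the study, and both deletions are carried in the germline. Cells were either resting or stimulated with LPS at 5 μg per ml for 2 days, although a protocol text in the labels gives the dose in mg, and the labels describe resting cells as kept in medium for 2 days whereas the methods describe them as taken before stimulation. Each genotype and state has 1 library, which the labels call a pool of 2 mice, so that no difference between genotypes within a state has a replicate check.

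The 6 libraries held between 9111974 and 21998587 gene counts. B-cell markers were abundant in all of them, with a summed level over 7 genes from 2123 to 3219 CPM at rest and from 1764 to 2079 CPM after LPS (read counts normalised for library size with the TMM method of edgeR). The Spn gene, which encodes the CD43 used for depletion, had between 10.1 and 17.2 CPM in resting and between 20.03 and 90.1 CPM in LPS-stimulated B-cells. Other cell types left RNA mainly in the resting libraries. The 6 erythroid markers summed to 3354 CPM in wt, 3863 CPM in 3′RR-deficient and 20137 CPM in Eμ-deficient resting B-cells, and the 8 markers of macrophages and neutrophils to 152, 153 and 366 CPM, respectively. The deleted enhancers have no line in the gene table and the deletions could not be checked there. RNAs added to every library at fixed proportions (spike-in RNAs) differed in log2 ratio between the LPS-stimulated 3′RR-deficient and wt libraries with an SD of 1.27 over 35 RNAs, against 0.16 between the resting libraries of these genotypes. Between LPS-stimulated and resting libraries this SD was 0.78 in wt, 0.63 in 3′RR-deficient and 0.13 in Eμ-deficient B-cells, so that the LPS-stimulated wt and 3′RR-deficient libraries both differed from their resting ones.

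The receptor chains carry the site at which the pathway starts. Of the 9 genes, a search of the coding sequences for the immunoreceptor tyrosine-based activation motif (ITAM), a pair of tyrosines each followed at a fixed distance by leucine or isoleucine, found it in Cd79a and Cd79b alone, and in 2.87% of 21759 coding genes. The stretches below are shown because they are what LYN phosphorylates and SYK binds. The capitals mark the codons of the tyrosines and of the leucine or isoleucine.
Cd79a: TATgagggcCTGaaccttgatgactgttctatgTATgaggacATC
Cd79b: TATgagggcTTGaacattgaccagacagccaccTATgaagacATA
The Cd79a stretch lies at chr7:24901296-24901469 on the plus strand of GRCm38 in the GENCODE M21 annotation and joins exons 4 and 5 of 5, with its tyrosines at codons 182 and 193 of 220. The Cd79b stretch lies at chr11:106311867-106312012 on the minus strand and joins exons 5 and 6 of 6, with its tyrosines at codons 255 and 266 of 288. Over 45 nt, 31 nt were identical. Both are coding sequence. Cd79a transcripts share 98.7% identity over 298 nt with Gm32220, which has no line in the count table, so that its counts could not be checked. For Cd79b no other gene with at least 95% identity over 150 nt was found.

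Upon LPS stimulation, Lyn fell and none of the other 8 genes passed the test. Lyn, which encodes the kinase that first phosphorylates the receptor chains and that also starts inhibitory signals, fell 2.27-fold. The other 8 had fitted log2 fold changes from -0.71 for Cd79a to -0.04 for Ms4a1, all with adjusted p above 0.05. The test was the edgeR quasi-likelihood test on counts, with genotype and state as additive terms and Benjamini-Hochberg adjustment over the 14600 genes. It called 1 of the 9 genes, against 40.8% of all genes tested (21.1% lower and 19.7% higher). The median log2 fold change was -0.29 over the 9 genes and -0.07 over all genes tested. With scaling by the spike-in RNAs the median of all genes was -0.28, and Lyn remained the only one of the 9 genes called. Some markers of B-cells and of plasma cells, the antibody-secreting cells that B-cells turn into, were called between the states. Of the 7 B-cell markers 2 fell, Ebf1 (-1.17) and Cd22 (-0.81 on the log2 scale). Of the 5 plasma cell markers 2 rose, Prdm1 (3.04) and Xbp1 (1.86). Sdc1 (0.28), Irf4 (-0.13) and Jchain (-0.37) were not called. The summed level of the plasma cell markers overlapped between states, with 546 to 2232 CPM at rest and 581 to 1589 CPM after LPS. The part of such cells in the levels of the 9 genes was not tested. In a bulk population, fewer cells of a type and less RNA per cell cannot be told apart.

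**Figure D1:**
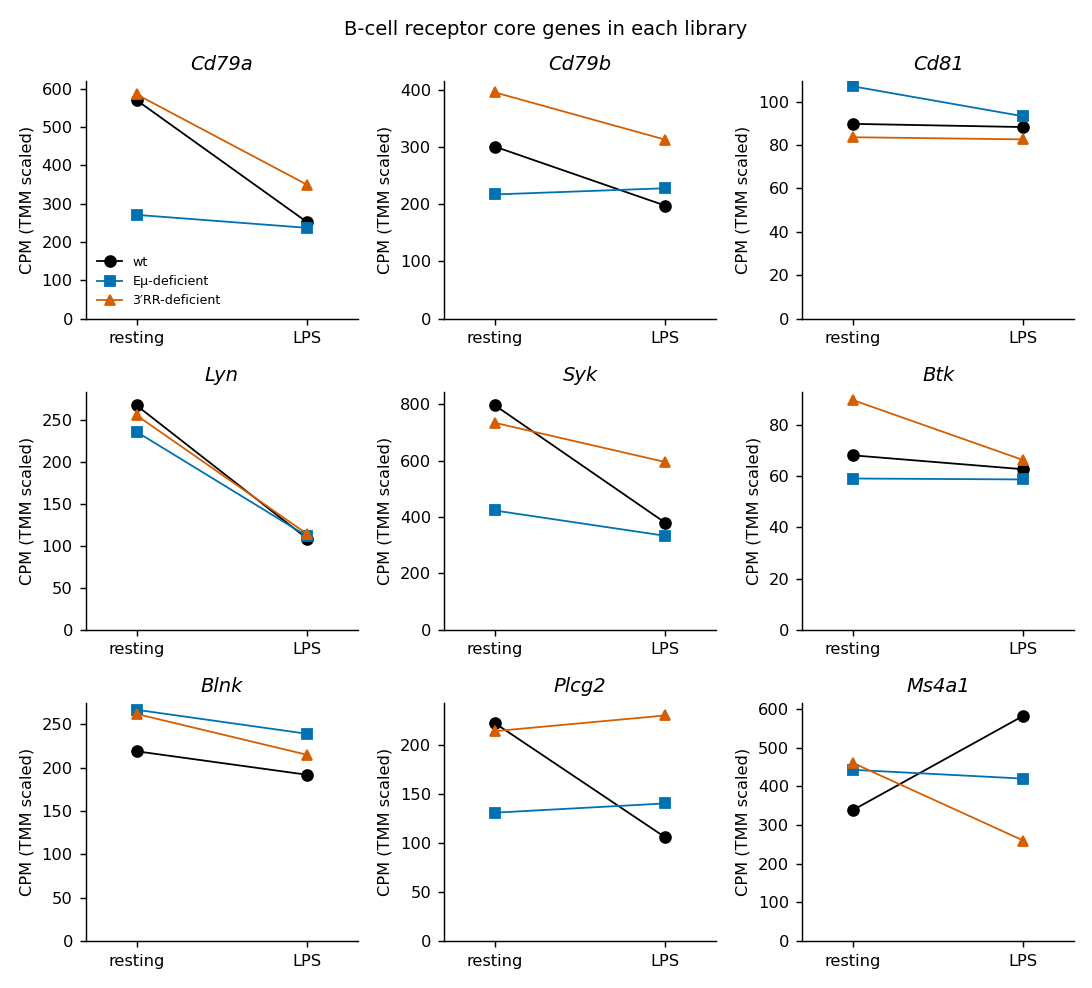
Levels of the 9 genes in each library, in CPM with TMM scaling (vertical axes start at 0), at rest and after LPS, with circles for wt, squares for Eμ-deficient and triangles for 3′RR-deficient mice; each point is 1 library. Lyn is the gene whose 3 LPS values all lie below its 3 resting values.

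Cd79a (chromosome 7, 24897381 to 24902197, plus strand) and Cd79b (chromosome 11, 106311341 to 106314762, minus strand) encode the chains of the signaling heterodimer. Cd79a had 569.6 CPM in wt, 271 CPM in Eμ-deficient and 585 CPM in 3′RR-deficient resting B-cells. After LPS it had 252, 237 and 349 CPM, respectively. Every genotype was lower after LPS, but the resting Eμ-deficient library was already as low as the stimulated ones, and the groups overlap. The fitted log2 fold change was -0.71 (95% interval -1.35 to -0.06, SE 0.29, adjusted p = 0.0759 with the edgeR quasi-likelihood test). The DESeq2 Wald test gave -0.70 with an adjusted p of 0.0313, and over the alternatives run the adjusted p reached 0.232. Cd79b had 301, 217 and 396 CPM at rest and 198, 228 and 313 CPM after LPS, in the same order of genotypes. It was lower after LPS in wt and 3′RR-deficient B-cells and slightly higher in Eμ-deficient ones. Its log2 fold change was -0.29 (95% interval -0.88 to 0.30), and a change of either sign remains possible at this spread.

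Cd81 (chromosome 7, 143052739 to 143067934, plus strand), the tetraspanin of the co-receptor complex, had 89.7, 107 and 83.6 CPM in resting wt, Eμ-deficient and 3′RR-deficient B-cells and 88.2, 93.2 and 82.6 CPM after LPS. Its highest level was 1.30 times its lowest, whereas this ratio was 2.47 for Cd79a. The fitted log2 fold change upon LPS was -0.08 (95% interval -0.58 to 0.42).

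Lyn (chromosome 4, 3678115 to 3813122, plus strand) had 267 CPM in wt, 236 CPM in Eμ-deficient and 256 CPM in 3′RR-deficient resting B-cells. After LPS it had 109, 112 and 114 CPM, respectively. The 3 genotypes were close to one another in each state, and the states did not overlap, as was so in this direction for 27.3% of all genes tested. The mean fell from 253 ± 15.9 to 112 ± 2.72 CPM (SD, n = 3 libraries per state), a log2 fold change of -1.18 (95% interval -1.72 to -0.64, SE 0.24, adjusted p = 0.00468 with the edgeR quasi-likelihood test). The log2 ratio of LPS to resting was -1.30 in wt, -1.08 in Eμ-deficient and -1.16 in 3′RR-deficient B-cells. Scaled by the spike-in RNAs these ratios were -2.09, -0.91 and -1.16, so that how close the 3 pairs lie depends on the scaling. Spike-in RNAs ranged around their summed level from -1.26 to 1.70 in the wt pair of libraries, from -0.24 to 0.29 in the Eμ-deficient pair and from -1.37 to 1.16 in the 3′RR-deficient pair. Scaled by the spike-in RNAs, as this range is, Lyn lay below it in the wt pair (-2.09 against -1.26). It also lay below it in the Eμ-deficient pair (-0.91 against -0.24) and within it in the 3′RR-deficient pair. With TMM scaling, which is not the scale of this range, the wt ratio of Lyn was -1.30. Spike-in scaling lowers every gene of the wt pair by the same amount on the log2 scale, Cd81 for instance from -0.02 to -0.82. The share of all genes below the range under this scaling was not computed. Over the other 4 libraries, without the Eμ-deficient ones, the edgeR fit called 4032 of all genes tested, against 5962 over all 6 libraries. For Lyn its log2 fold change was -1.14, with an SE of 0.50 and an adjusted p of 0.0718. The call of Lyn thus depended on the Eμ-deficient libraries, while the estimate hardly moved. Without the LPS-stimulated 3′RR-deficient library it was -1.19 with an adjusted p of 0.0212, and without the LPS-stimulated wt library -1.12 with an adjusted p of 0.000205.

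LYN is also made by myeloid cells. All 8 markers of macrophages and neutrophils were called lower upon LPS, and their summed level went from between 152 and 366 CPM to between 21.4 and 35.4 CPM. None of these markers was at 0 in every library. Their part in the change of Lyn was not tested. Lyn shares 98.8% identity over 1050 nt with Gm11787, which received 498 counts over the 6 libraries against 17723 for Lyn.

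Syk (chromosome 13, 52583173 to 52648792, plus strand), the kinase that docks on phosphorylated ITAMs, had 797, 423 and 734 CPM in resting wt, Eμ-deficient and 3′RR-deficient B-cells. After LPS it had 379.8, 333 and 595 CPM. All 3 genotypes were lower after LPS, but by different amounts, with a log2 ratio of -1.07 in wt, -0.34 in Eμ-deficient and -0.30 in 3′RR-deficient B-cells. The fit gave -0.57 (95% interval -1.21 to 0.07, adjusted p = 0.135 with the edgeR quasi-likelihood test). Btk (chromosome X, 134542336 to 134583570, minus strand), the TEC family kinase that activates PLCG2, had 68.2, 59.1 and 89.7 CPM in resting and 62.7, 58.7 and 66.3 CPM in LPS-stimulated B-cells, with a log2 fold change of -0.19 (95% interval -0.69 to 0.32). The groups overlap, and the resting 3′RR-deficient library was the high one.

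Blnk (chromosome 19, 40928927 to 40994535, minus strand) encodes the adaptor on which BTK and PLCG2 meet. It had 219, 267 and 262 CPM in resting wt, Eμ-deficient and 3′RR-deficient B-cells and 192, 239 and 215 CPM after LPS. Each genotype was a little lower after LPS, the groups overlap, and the log2 fold change was -0.21 (95% interval -0.76 to 0.33). Plcg2 (chromosome 8, 117498291 to 117635142, plus strand), the phospholipase, had 222, 131 and 214 CPM in resting and 106, 140.03 and 229.6 CPM in LPS-stimulated B-cells. The log2 ratio of LPS to resting was -1.07 in wt and 0.10 in each mutant, a difference that was not tested. The fit over the 3 genotypes gave -0.29 (95% interval -0.97 to 0.40), and 0.13 without the wt libraries.

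Ms4a1 (chromosome 19, 11249675 to 11266241, minus strand), which encodes CD20, differed in direction between the pairs of libraries, which was not tested. In wt B-cells it had 339 CPM at rest and 583 CPM after LPS. In Eμ-deficient B-cells it had 443 and 420.4 CPM, and in 3′RR-deficient B-cells 461 and 259.8 CPM. The log2 ratios were 0.78, -0.08 and -0.83, respectively, and averaged to a fitted change of -0.04 (95% interval -0.81 to 0.73). With scaling by the spike-in RNAs the ratio of the wt pair was -0.01 in place of 0.78, and without the trend of all genes on GC content the wt and 3′RR-deficient ratios were 0.27 and -0.47.

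**Figure D2:**
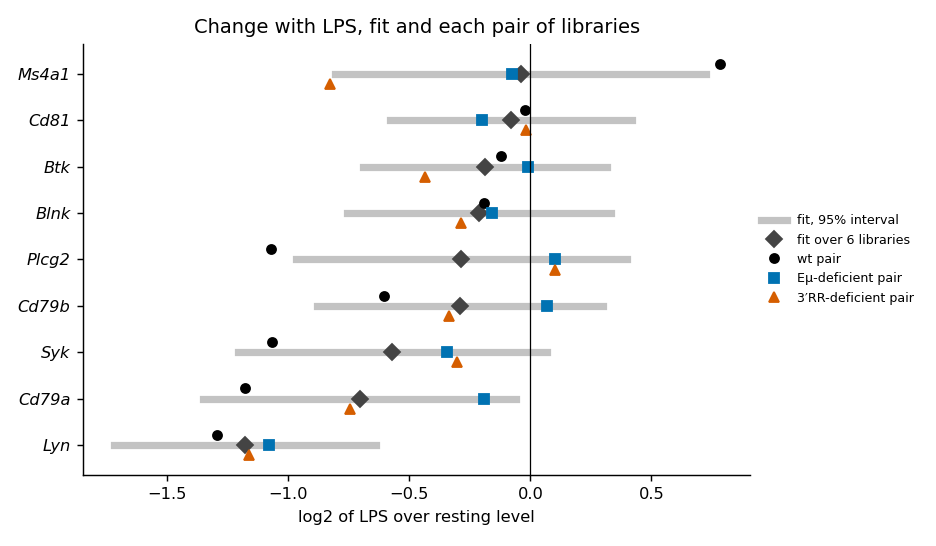
Log2 of the LPS over the resting level for the 9 genes (horizontal axis, log2 scale): diamonds and grey bars give the edgeR estimate over 6 libraries with its 95% interval, and the other symbols give each genotype's pair of libraries. With TMM scaling, as plotted, the 3 pairs of Lyn run from -1.30 to -1.08, whereas Ms4a1 spreads from -0.83 to 0.78.

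Differences of at least 2-fold were most numerous in the wt pair of libraries. In it, Cd79a, Lyn, Syk and Plcg2 were at least 2-fold lower after LPS, 4 of 9 genes, against 25.8% of all genes tested, and 0 of 9 were 2-fold higher (21.4% of all genes). In each mutant pair Lyn was the only such gene, 1 of 9, against 20.5% of all genes in the Eμ-deficient and 23.1% in the 3′RR-deficient pair, and 0 of 9 were 2-fold higher (17.2% and 18.1% of all genes). With the GC trend removed, the wt ratios were -0.69 for Cd79a, -0.76 for Syk and -0.63 for Plcg2, under 2-fold, and -1.46 for Lyn.

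Around these 9 genes, 52 others of the pathway were followed in the lists shown in the plot of pathway genes. Of these 52 genes, 25 fell, 1 rose and 26 did not pass the test, with a median log2 fold change of -0.70. Of all genes tested, 21.1% fell and 19.7% rose, with a median of -0.07. These lists were chosen with earlier results of these data known.

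Upstream, 2 of the 4 other co-receptor genes fell. Cr2, the complement receptor of this complex, fell by 2.55 on the log2 scale, from between 394 and 731 CPM to between 59.8 and 109.8 CPM. Ptprc, which encodes the phosphatase CD45 that keeps Src kinases ready, fell by 0.91. Of the 5 other Src family kinases, 4 fell, among them Blk (-1.76), Fgr (-2.23) and Fyn (-0.87 on the log2 scale). Blk is a kinase of B-cells, with between 198 and 213 CPM at rest and between 48.8 and 75.8 CPM after LPS. Fgr is also made by myeloid cells, whose markers fell as given beside Lyn. The 6 T-cell markers went in sum from between 14.5 and 31.5 CPM to between 0.43 and 4.12 CPM, and the 5 tested were all called lower. The part of other cell types in the falls of these kinases was not tested.

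Among 15 genes of the PI3K, Vav and Ras branches, 7 fell: Tec, Vav3, Dapp1, Pik3ap1, Bank1, Pik3r1 and Vav2. Tec, a kinase related to Btk, had the largest change, -1.65, against -0.19 for Btk. Of 13 genes of the calcium and NFAT branch, which lies downstream of Plcg2, 5 fell. These were the inositol trisphosphate receptors Itpr2 (-1.63) and Itpr3 (-1.21), the transcription factors Nfatc2 (-1.75) and Nfatc1 (-1.22) and the channel subunit Orai2 (-1.17). Of the 4 genes that lead to NF-κB, Malt1, a paracaspase, fell by 1.41 on the log2 scale.

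Inhibitors of the pathway fell as well, 6 of 11: Dok3 (-2.13), Inpp5d (-1.72), which encodes the phosphatase SHIP1, Pag1 (-1.65), Ptpn22 (-0.99), Cd72 (-0.92) and Cd22 (-0.81). Fcgr2b, the inhibitory Fc receptor, was the 1 gene that rose, by 0.83 on the log2 scale, from between 64.1 and 90.1 CPM to between 113 and 177 CPM. Of the antigen-binding chains, Ighd fell by 1.73, while Ighm (0.62, adjusted p = 0.113) and Igkc (0.62, adjusted p = 0.167) did not pass the edgeR quasi-likelihood test.

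**Figure D3:**
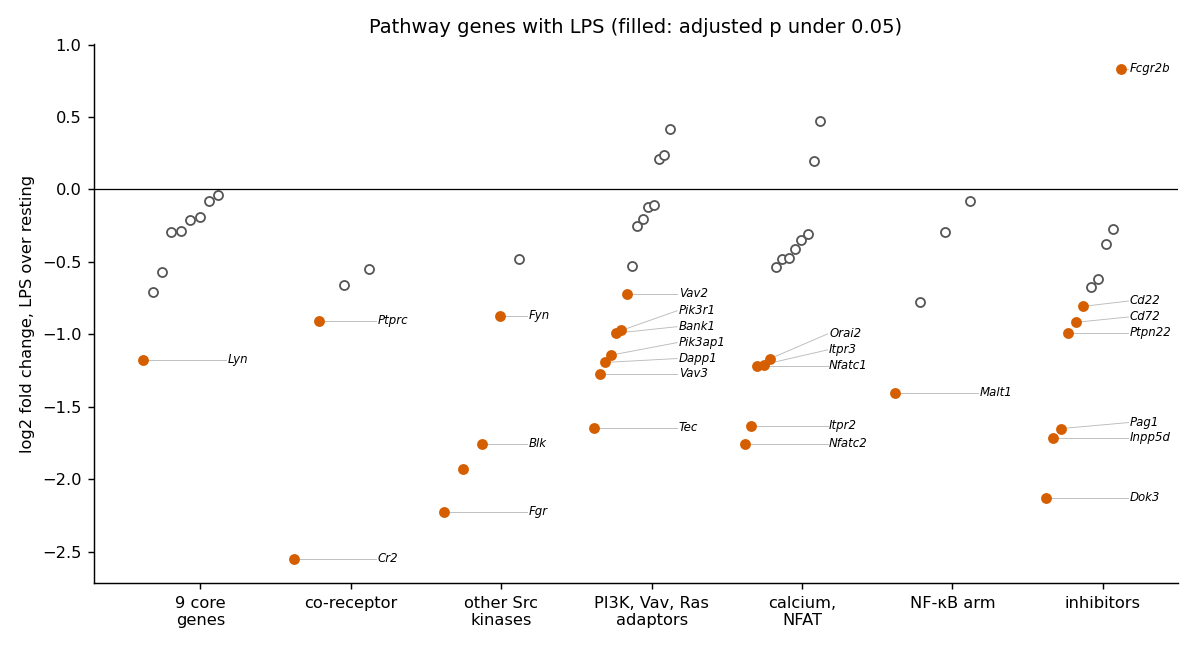
Log2 fold change of LPS over resting from the edgeR fit (vertical axis) for the 9 core genes and 52 other pathway genes, grouped by role; each point is 1 gene and filled points, most of them named, passed an adjusted p of 0.05. Fcgr2b is the only filled point above 0, and Lyn is the only filled point among the 9 core genes.

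Between genotypes, none of the 9 genes passed the test in the edgeR fit over both states. For 3′RR-deficient against wt, the fit called 0 of 9 genes against 0.678% of all genes tested (0.171% higher and 0.507% lower), the DESeq2 Wald test also called 0, and the lowest unadjusted p among the 9 was 0.138, for Cd79b. Its log2 fold change was 0.52 (95% interval -0.20 to 1.24). The estimates of the 9 genes lay between -0.37 for Ms4a1 and 0.52, with a median of 0.24 against 0.04 over all genes tested. For Eμ-deficient against wt, the edgeR fit called 0 of 9 genes against 1.16% of all genes tested (0.911% higher and 0.253% lower), the DESeq2 Wald test called 0, and the lowest unadjusted p was 0.133, for Cd79a. The estimates lay between -0.58 for Cd79a and 0.30 for Blnk, with a median of -0.13 against -0.01 over all genes tested. The comparisons share the wt libraries. The intervals are wide, so that a 2-fold change of Cd79a (-1.37 to 0.21 for Eμ-deficient B-cells) or Plcg2 (-0.34 to 1.33 for 3′RR-deficient B-cells) lies within them. Of the 52 other pathway genes, the lowest adjusted p between genotypes in this fit was 0.402, for Pag1 in Eμ-deficient B-cells. Of the 3 antigen-binding chains, counted apart from these, Ighd was called lower in Eμ-deficient than in wt B-cells (log2 fold change -1.89, adjusted p = 0.0302 with the edgeR quasi-likelihood test). Ighm (1.32) and Igkc (1.63) were not called in this comparison. Between 3′RR-deficient and wt B-cells none of these chains was called, with log2 fold changes of -1.17 for Ighm, -0.69 for Ighd and 0.93 for Igkc.

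In resting B-cells, each of the 9 genes in the 3′RR-deficient library was within 1.36-fold of the wt library, with 1 library per genotype. The log2 ratios to wt ran from -0.12 for Syk to 0.44 for Ms4a1, and 0 of 9 genes were 2-fold higher (5.64% of all genes) or lower (4.1%). After LPS the same ratios were wider. Plcg2 had 229.6 CPM against 106 CPM in wt, a log2 ratio of 1.12 (95% interval 1.03 to 1.21, counting error only), and Ms4a1 had 259.8 CPM against 583 CPM, a log2 ratio of -1.17 (95% interval -1.23 to -1.10). These were the 2 genes past 2-fold, 1 in each direction, where 14% of all genes were at least 2-fold higher and 12.9% lower. With scaling by the spike-in RNAs, 4 of the 9 genes were past 2-fold higher, Plcg2 at 1.67, Cd79b at 1.21, Syk at 1.20 and Cd79a at 1.02. Past 2-fold lower were 0 of 9, with Ms4a1 at -0.62. This scaling raises every gene of this pair by the same amount on the log2 scale. The share of all genes past 2-fold under it was not computed. With TMM scaling, Cd79b, Syk and Cd79a had log2 ratios of 0.66, 0.65 and 0.47.

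Those LPS ratios went with the GC content of the transcripts. Ms4a1 has the lowest GC content of the 9 genes, 41.2%, and Plcg2, Cd79a, Cd79b and Syk the highest, from 53.1% to 54.9%. Across the 9 genes Spearman's rho of GC content and log2 ratio was 0.80, and across 13993 genes it was 0.60, values that come from the same pair of libraries. With the trend of all genes on GC content removed, Plcg2 was at 0.60, Ms4a1 at -0.43 and Cd79a at -0.09, and no gene of the core was past 2-fold between genotypes. The spike-in RNAs of the same libraries ranged from -2.60 to 2.17 around their summed count, which is not the scale of these ratios. Scaled by the spike-in RNAs, the 9 genes ran from -0.62 for Ms4a1 to 1.67 for Plcg2, within this range. What the deletion, GC content and each of these libraries, wt or 3′RR-deficient, contribute cannot be told apart with 1 library per group.

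**Figure D4:**
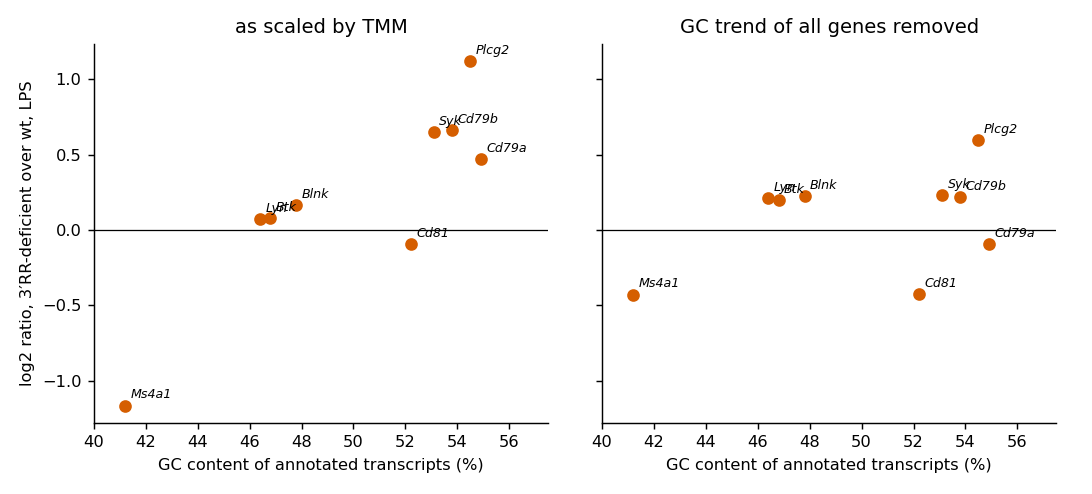
Log2 ratio between the LPS-stimulated libraries, 3′RR-deficient over wt (vertical axis), against the GC content of the annotated transcripts in percent, before (left) and after (right) removal of the trend of all genes; each point is 1 of the 9 genes. The range shrinks from between -1.17 and 1.12 to between -0.43 and 0.60.

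In Eμ-deficient B-cells the largest ratios to wt were at rest. Cd79a had 271 CPM against 569.6 CPM, a log2 ratio of -1.07 (95% interval -1.13 to -1.02, counting error only), and was the only gene of the 9 past 2-fold, where 5.99% of all genes were at least 2-fold lower. Syk was at -0.91 and Plcg2 at -0.76, while Blnk, Ms4a1 and Cd81 were above wt at 0.29, 0.39 and 0.25. After LPS the ratios were small, from -0.47 for Ms4a1 to 0.41 for Plcg2, with 0 of 9 genes 2-fold higher (10.4% of all genes) or lower (4.86%). Across the 9 genes the resting ratios went with GC content the other way, with Spearman's rho of -0.82 against -0.40 across 13993 genes, and with the trend removed Cd79a was at -0.77, Syk at -0.71 and Plcg2 at -0.50.

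The resting Eμ-deficient library also had the highest summed levels of erythroid, T-cell, plasma cell and macrophage and neutrophil markers. Markers of natural killer cells summed highest in the resting 3′RR-deficient library, at 6.22 CPM against 4.46 CPM in the resting Eμ-deficient one. The neutrophil genes S100a8 and S100a9 were also highest in that 3′RR-deficient library. All 6 erythroid markers were called higher in Eμ-deficient than in wt libraries, at 20137 CPM in sum against 3354 CPM at rest and 670 CPM against 52.9 CPM after LPS. The 7 B-cell markers, which include Cd79a, Cd79b and Ms4a1, summed to 2123 CPM at rest, against 2880 CPM in wt. The 5 plasma cell markers summed to 2232 CPM against 546 CPM at rest and to 1589 CPM against 581 CPM after LPS, and 1 of them, Jchain, was called higher in Eμ-deficient than in wt libraries (log2 fold change 3.55, adjusted p = 0.00748 with the edgeR quasi-likelihood test). The study also refers to an earlier report that Eμ-deficient mice lack follicular B-cells. The part of these cells, or of a missing B-cell subset, in the lower Cd79a, Syk, Plcg2 and Ighd was not tested. Scaled by the spike-in RNAs, all 9 genes were below wt in this library, from -0.43 for Ms4a1 to -1.89 for Cd79a. This scaling lowers every gene of this pair by the same amount on the log2 scale. With TMM scaling Ms4a1 was at 0.39 and Cd79a at -1.07, and the median of all genes tested was 0.03. The share of all genes below wt under spike-in scaling was not computed.

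**Figure D5:**
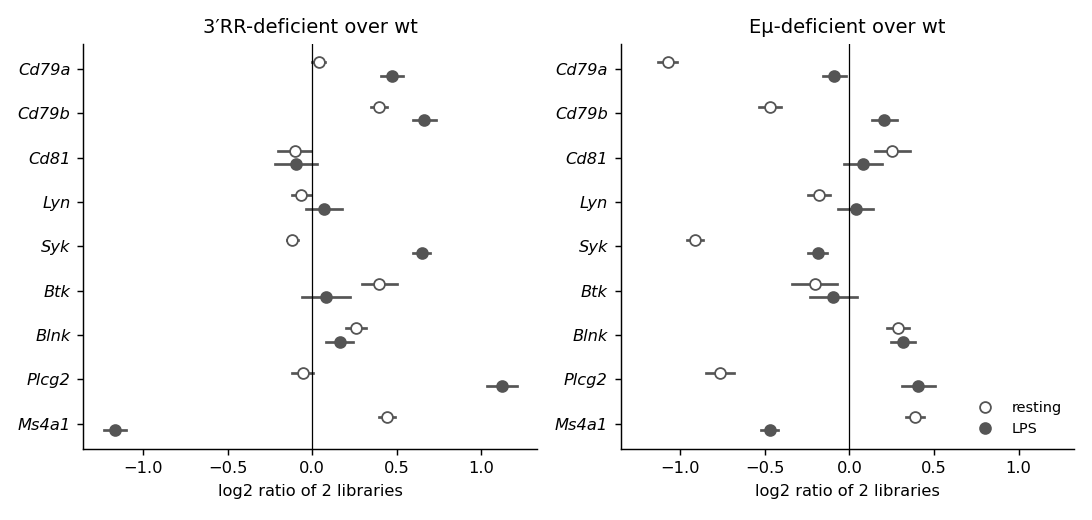
Log2 ratio of each mutant library to the wt library of the same state (horizontal axis) for the 9 genes, at rest (open circles) and after LPS (filled circles); bars are 95% intervals that cover counting error only. The ratios past 2-fold are Plcg2 and Ms4a1 for 3′RR-deficient B-cells after LPS and Cd79a for Eμ-deficient B-cells at rest.

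Per length of annotated exons, the receptor chains were the most abundant of the core in each of the 6 libraries, Cd79a first and Cd79b second, and Btk was the least. In resting B-cells the mean level was 326 CPM per kb for Cd79a and 213 CPM per kb for Cd79b, with ranges over the libraries that overlap although Cd79a was the higher in each. Syk (69.6), Ms4a1 (67.0) and Lyn (62.1 CPM per kb) came next, with ranges over the libraries that overlap, then Plcg2 (43.9), Blnk (41.6) and Cd81 (32.4), which also overlap, and Btk (23.0 CPM per kb). After LPS, Lyn went from rank 4, 4 and 5 in wt, Eμ-deficient and 3′RR-deficient B-cells to rank 7, 8 and 8, with levels between 26.7 and 28.05 CPM per kb.

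The balance of the chains also differed between libraries. The level of Cd79a per kb was 1.86, 1.22 and 1.45 times that of Cd79b in resting wt, Eμ-deficient and 3′RR-deficient B-cells. After LPS it was 1.25, 1.02 and 1.10 times, lower in each genotype, with the highest stimulated ratio above the lowest resting one. The level of Syk per kb relative to Lyn was 1.30, 0.78 and 1.25 at rest and 1.52, 1.30 and 2.27 after LPS, higher in each genotype.

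For each of the 9 genes, the gene with the most similar pattern was sought among those with at least 100 counts in every library, by the root-mean-square difference of centred log2 CPM over the 6 libraries. Lyn was closest to Chd6, a chromatin remodeler, with a difference of 0.04 and levels of 103, 88.4 and 94.9 CPM at rest and 42.3, 44.4 and 42.01 CPM after LPS. Plcg2 was closest to Hgs (0.04), Blnk to Nsmce2 (0.04), Cd81 to Shprh (0.05), Btk to Hmg20b (0.06), Ms4a1 to Commd8 (0.06) and Syk to Kctd10 (0.07). Cd79b (Rxrb, 0.10) and Cd79a (Traf3ip2, 0.11) had the least similar neighbours. None of the nearest genes was another of the 9 or one of the 52 other pathway genes.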

How the data were processed

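From rRNA-depleted RNA the authors prepared stranded libraries. They aligned read pairs to mm10 (GRCm38) with STAR 2.4.0a and Ensembl gene models, and counted fragments per gene name with featureCounts (Subread 1.4.6-p1), with multi-mapping reads kept. Raw counts were deposited, 1 column per library. Of 47055 names, 92 are spike-in RNAs, which took 4.75% to 7.10% of the counts and entered neither library sizes nor tests, and 44131 were found in GENCODE M21. At 68 pairs of genes on opposite strands the partner of a coding gene received a median of 0.358% of its counts per nt, so that counts lie on the sense strand.

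Counts were scaled by TMM and fitted in edgeR 4.0.16 (R 4.3.3) by the quasi-likelihood test, with genotype and state as additive terms, a minimum of 10 counts in 2 libraries per gene, Benjamini-Hochberg adjustment and a threshold of 0.05. The residual has 2 degrees of freedom and is the departure from additivity, which may be technical, not the spread between mice. The genotype term pairs the libraries of a genotype, which may come from the same mice. Ratios of 2 libraries have exact conditional binomial 95% intervals (scipy 1.17.1) that cover counting error only. The spike-in ratios are taken around their summed count. The 9 genes and the lists were chosen with earlier results of these data known. Named genes are the 9, the list genes past the threshold or, in lists with fewer than 4 of these, the largest changes, and the nearest gene by pattern. Some list genes are counted but their values are not reported here. Alternatives were other scalings (total count, DESeq2 size factors, no immunoglobulin genes, spike-in RNAs), DESeq2 1.42.0, other count filters, GC correction, other sets of genotypes and no genotype term. Leaving out the LPS-stimulated 3′RR-deficient or wt library and the GC correction of library ratios were added after seeing the data. The replicate pools of the study's methods were not analysed here.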

Additional observations from a re-analysis of the deposited data

Results flagged for a closer look

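Some of the 9 genes had a ratio that changed sign between genotypes or states. Each sign rests on 1 pair of libraries, the difference was not tested, and each value is a difference of log2 ratios, given with its size after the trend on GC content was removed. For Ms4a1, the change upon LPS was 1.61 higher in wt than in 3′RR-deficient B-cells, and equally the ratio of 3′RR-deficient to wt was 1.61 higher at rest than after LPS (0.74 with the trend removed). Its ratio of Eμ-deficient to wt was 0.86 higher at rest than after LPS (0.32 with the trend removed). For Plcg2, the change upon LPS was 1.18 higher in 3′RR-deficient than in wt B-cells (0.61 with the trend removed, when both changes were below 0), and the ratio of Eμ-deficient to wt was 1.17 higher after LPS than at rest (0.68 with the trend removed). For Syk, the ratio of 3′RR-deficient to wt was 0.77 higher after LPS than at rest (0.31 with the trend removed). For Cd79b, the ratio of Eμ-deficient to wt was 0.68 higher after LPS than at rest (0.25 with the trend removed).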

How the results depend on the processing

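Lyn was called lower upon LPS in 13 of 14 alternatives, with log2 fold changes from -1.39 to -1.10 and adjusted p from 2.15e-05 to 0.0718, the last without the Eμ-deficient libraries. Of the 9 genes, 2 were called by the DESeq2 Wald test (Lyn and Cd79a) and 0 to 1 when a genotype was left out. Small estimates changed sign. Upon LPS, leaving out a genotype gave -0.49 to 0.13 for Plcg2 (highest without wt), -0.11 to 0.071 for Cd81 (highest without Eμ-deficient) and -0.43 to 0.35 for Ms4a1 (highest without 3′RR-deficient libraries, 0.071 without Eμ-deficient ones). Ms4a1 was also at 0.35 without the LPS-stimulated 3′RR-deficient library alone and at 0.024 without the genotype block, that is without the pairing of a genotype's libraries, which changed no call among the 9 genes. Plcg2 was at 0.10 without the LPS-stimulated wt library alone. Between 3′RR-deficient and wt, Lyn (0.0015) was at -0.079 with total counts, -0.0069 with DESeq2 size factors, -0.0045 without immunoglobulin genes, -0.0070 with the DESeq2 Wald test, -0.054 without a filter, -0.039 in the fit of these genotypes alone and -0.012 without the LPS-stimulated 3′RR-deficient library. Cd81 was at 0.035 with spike-in scaling, and Ms4a1 at 0.21 without that library. Without the LPS-stimulated wt library, Cd79a was at -0.092, Lyn at -0.085, Syk at -0.11, Plcg2 at -0.054 and Ms4a1 at 0.27. Between Eμ-deficient and wt, Cd81 was at -0.18 and Blnk at -0.042 with spike-in scaling, and Ms4a1 at 0.59 without the LPS-stimulated wt library. Genes called between 3′RR-deficient and wt numbered 99, and 170 with spike-in scaling, 178 with DESeq2, 339 without a filter, 48 with at least 50 counts in 3 libraries, 188 with these genotypes alone and 271 without the LPS-stimulated wt library. Between Eμ-deficient and wt they numbered 170, and 88 without immunoglobulin genes, 340 with DESeq2, 605 without a filter, 102 with at least 50 counts, 446 with these genotypes alone 450 without the LPS-stimulated 3′RR-deficient library and 1331 without the LPS-stimulated wt one. The cause was not tested. Upon LPS 5962 genes were called, 2883 higher and 3079 lower, and 4032 to 6670 when a genotype was left out. Spike-in scaling gave 1454 higher and 2900 lower. Of the ratios of 2 libraries under an alternative, 120 lay outside their counting interval and 258 within it, and no ratio past 2-fold changed sign. Each of the 9 genes had at least 590 counts in every library.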
